A study of Mus musculus with 8 samples.

Results

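The genes examined here encode the respiratory chain and ATP synthase of mouse 3T3L1 cells, an established preadipocyte line. They were chosen by symbol as the 13 protein-coding genes of mitochondrial DNA and the nuclear protein-coding genes whose symbols start with Ndufa, Ndufb, Ndufc, Ndufs or Ndufv, Sdha to Sdhd, Uqcr, Cox4 to Cox8 or Atp5. The rule gave 110 of the 46073 genes listed, 13 mitochondrial and 97 nuclear. The nuclear members were 38 genes of complex I, 4 of complex II, 8 of complex III, 18 of complex IV, 17 of complex V and 12 assembly factors whose symbols share the Ndufa or Sdha prefix. RNA-seq had been made from 8 libraries in 4 groups of 2. Ddx6-KO cells had received lentiviral Cas9 and a guide against exon 4 of Ddx6, the gene of an RNA helicase of processing bodies. TOM cells, the mock line, had received Cas9 and a guide against tdTomato, and both lines were selected with puromycin and cloned by limiting dilution, so each line descends from single cells. Each line was sampled at day 2 of adipogenic induction with dexamethasone, IBMX and insulin, and at day 0.

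Oxidative phosphorylation is built from both genomes. Complex I (NADH dehydrogenase), complex III (the cytochrome bc1 complex), complex IV (cytochrome c oxidase) and complex V (ATP synthase) hold subunits encoded in mitochondrial DNA next to nuclear-encoded ones, while complex II (succinate dehydrogenase) is wholly nuclear. The mitochondrial genes are transcribed as long precursors from which tRNAs are cut out to release the mRNAs, and fat cells are known to gain mitochondria as they differentiate.

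The values were FPKM, fragment numbers scaled by transcript length and library size, and differences were tested with limma on log2(FPKM + 1) over the 15811 genes that reached 1 FPKM in 2 or more libraries. Of the members, 11 mitochondrial and 90 nuclear genes entered the test, and a gene was called where the Benjamini-Hochberg adjusted p over all genes was below 0.05. The spacing of low FPKM values gave an estimated depth of 1480000 to 21100000 fragments a library, highest in TOM day 0 library 1, so each FPKM of a low gene rests on few fragments. Pearson's r of log2 values between the 2 libraries of a group ran from 0.888 in Ddx6-KO day 2 to 0.950 in Ddx6-KO day 0. The sample titles number the libraries of a group as replicates and the methods mention repeated experiments, but neither says whether the RNA-seq libraries came from separate cultures. The p-values therefore reflect just the spread from library to library. An exact permutation test of 2 against 2 libraries cannot go below p = 0.33. Ddx6 itself was at 50 and 43.0 FPKM in the libraries labelled Ddx6-KO at day 2 and 27.2 and 31.9 FPKM at day 0, against 28.8 and 28.4 FPKM in TOM at day 2 and 11.3 and 19.9 FPKM at day 0. Its mRNA was thus not lower in Ddx6-KO, and a gene-level sum does not show whether a guide left an insertion or deletion. The study reports loss of the Ddx6 protein in the Ddx6-KO cells by western blotting, which these RNA values do not address. Groups are named by their labels throughout.

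The 13 mitochondrial mRNAs fell into a high and a low set. The 7 genes mt-Nd1, mt-Nd2, mt-Nd4, mt-Nd5 and mt-Nd6 of complex I, mt-Cytb of complex III and mt-Co1 of complex IV, lay between 139 and 6774 FPKM over the 8 libraries. The other 6, mt-Co2 and mt-Co3 of complex IV, mt-Atp6 and mt-Atp8 of complex V and mt-Nd3 and mt-Nd4l of complex I, were listed at 0 to 7.43 FPKM. These 6 are neighbours on the mitochondrial chromosome, from mt-Co2 at position 7013 to the end of mt-Nd4l at position 10173 (GRCm38). mt-Nd3 was listed at 0.750 and 4.53 FPKM in TOM day 0 and at 0 elsewhere, and mt-Nd4l was at 0 in all 8 libraries. All 22 mitochondrial tRNA genes were listed at 0 as well, so a 0 in this table is not evidence that a transcript was lacking.

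**Figure D1:**
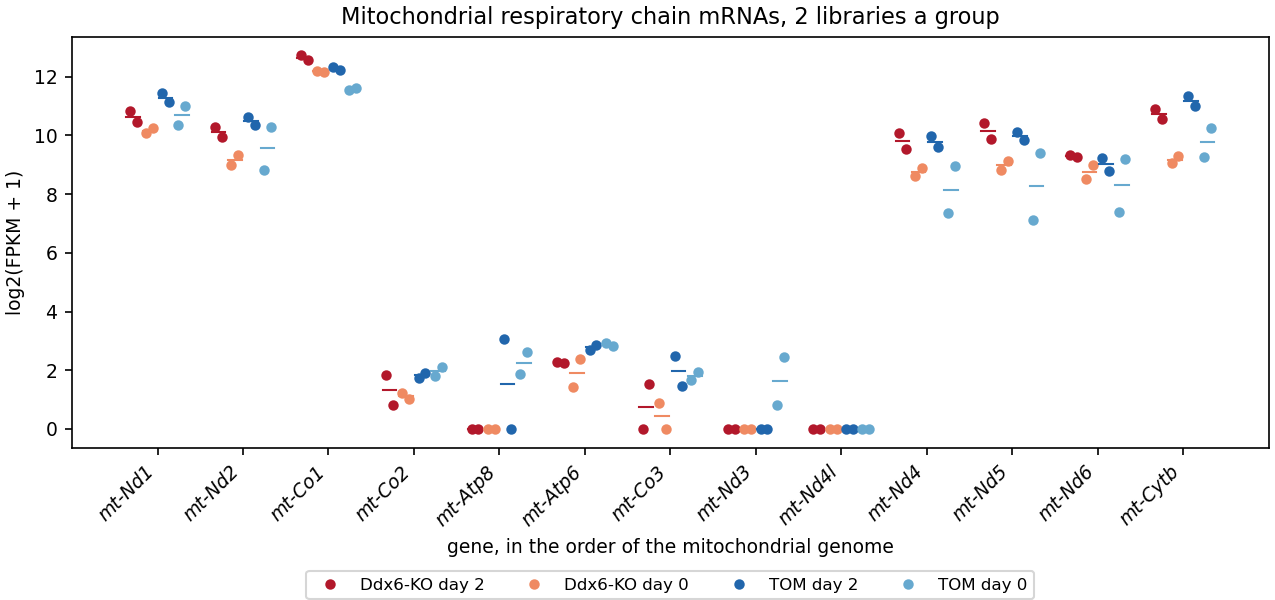
Level of each mitochondrial respiratory chain mRNA, as log2(FPKM + 1), in the order of the mitochondrial genome. Points are libraries and short lines are means of the 2 libraries of a group. The 7 high genes sit between 139 and 6774 FPKM, and the 6 genes from mt-Co2 to mt-Nd4l sit at or below 7.43 FPKM in every group.

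Copies were sought among annotated transcripts, and the nuclear genome itself was not searched. Of the 6 low genes, all but mt-Atp8 have an annotated nuclear copy that is at least 99.71% identical over the aligned bases. A block on chromosome 1 (GRCm38, chr1:24611535-24616197, minus strand) holds 7 annotated pseudogenes that match, in the order of the block, mt-Nd4, mt-Nd4l, mt-Nd3, mt-Co3, mt-Atp6, mt-Co2 and mt-Co1. The copies of mt-Co2 (Gm28661, 681 aligned bases), mt-Atp6 (Gm10925, 678 bases), mt-Co3 (Gm28437, 783 bases) and mt-Nd4l (Gm10222, 294 bases) were identical to the mitochondrial gene, and that of mt-Nd3 (Gm28438, 345 bases) differed at 1 base. Such identity also occurred in part of 2 high genes in the same block. mt-Nd4 has an identical copy over 876 of its 1378 bases (Gm28439). mt-Co1 has one of 99.793% identity over 483 of its 1545 bases (Gm29216). For mt-Co2, mt-Co3, mt-Atp6, mt-Nd3 and mt-Nd4l, annotated copies covered 99.0% to 100% of the gene. The high gene mt-Co1 was also covered to 100%, by Gm13340 on chromosome 2, which is 97.605% identical over 1545 bases. Full coverage was thus not confined to the low genes. In the other high genes, copies covered 49.1% of mt-Nd2, 63.6% of mt-Nd4, 52.3% of mt-Nd5 and 0% of mt-Nd1, mt-Nd6 and mt-Cytb. Reads from identical stretches cannot be placed in 1 of the 2 genomes by sequence. The first 60 coding bases of mt-Co2 and mt-Nd3, each with its chromosome 1 copy, are shown from GENCODE M21 transcripts, with capitals at the base that differs.
mt-Co2: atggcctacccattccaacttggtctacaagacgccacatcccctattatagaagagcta
Gm28661: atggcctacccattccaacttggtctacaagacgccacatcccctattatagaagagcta
mt-Nd3: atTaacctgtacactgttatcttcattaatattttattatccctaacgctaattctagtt
Gm28438: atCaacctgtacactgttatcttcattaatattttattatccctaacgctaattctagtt
The 7 pseudogenes were listed at 0 to 10.9 FPKM over the libraries, so the low level of mt-Co2, mt-Atp6 and mt-Co3 was not made up by fragments listed under these copies. mt-Atp8, for which no annotated copy passed the identity rule, was at 7.43 and 0 FPKM in TOM day 2 and 2.67 and 5.10 FPKM in TOM day 0. It was at 0 in all 4 Ddx6-KO libraries. Its end overlaps mt-Atp6, whose copy in the block is identical, so a nuclear match to mt-Atp8 can exist without an annotated copy. How reads with several matches were weighted was not tested.

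mt-Cytb, the only complex III subunit encoded in mitochondrial DNA, rose with induction in both lines. It was at 1929 and 1511 FPKM in Ddx6-KO day 2, against 531 and 630.2 FPKM at day 0. In TOM it was at 2570.4 and 2043 FPKM at day 2, against 621 and 1209 FPKM at day 0. In each line both day 2 libraries lay above both day 0 libraries, and the log2 difference was 1.56 (SE 0.31, limma adjusted p = 0.0229) in Ddx6-KO and 1.40 (SE 0.31, adjusted p = 0.0410) in TOM. The difference between these changes was 0.16 (95% interval -0.88 to 1.20, adjusted p = 0.898).

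mt-Co1, the catalytic subunit of cytochrome c oxidase and the most abundant member of either genome, was at 6774 and 6048 FPKM in Ddx6-KO day 2, against 4724 and 4550.4 FPKM at day 0. In TOM it was at 5206 and 4823 FPKM at day 2, against 3018 and 3125 FPKM at day 0. The groups of each line did not overlap, and mt-Co1 passed the test in TOM (log2 difference 0.71, SE 0.16, limma adjusted p = 0.0467) and not in Ddx6-KO (0.47, 95% interval 0.08 to 0.85, adjusted p = 0.126), with a difference of the changes of -0.24 (adjusted p = 0.648). The complex I subunits mt-Nd1, mt-Nd2, mt-Nd4, mt-Nd5 and mt-Nd6 had log2 differences of 0.49, 0.97, 1.07, 1.18 and 0.55 in Ddx6-KO and of 0.60, 0.92, 1.64, 1.73 and 0.71 in TOM, and none of them passed the test. In Ddx6-KO, both day 2 libraries lay above both day 0 libraries for mt-Nd5, a core membrane subunit, at 1383 and 942 FPKM, against 449 and 563 FPKM. In TOM the same gene was at 1122 and 924 FPKM at day 2, against 139 and 672 FPKM at day 0.

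Of the 11 mitochondrial genes tested, 1 was called higher and 0 lower at day 2 in Ddx6-KO, beside 4.8% of all genes called higher and 5.85% called lower. In TOM 2 were called higher and 0 lower, beside 3.4% and 3.74% of all genes. Both day 2 libraries lay above both day 0 libraries for 7 of the 11 genes in Ddx6-KO and 6 of the 11 in TOM, against 30.9% and 25.5% of all genes tested. These were all genes of the high set. The 11 also take in mt-Co2, mt-Co3, mt-Atp6 and mt-Atp8 of the low set. The median was 0.97 in Ddx6-KO and 0.92 in TOM for the 5 complex I genes tested, all of the high set. It was 0.18 and -0.40 for the 2 of complex V, both of the low set. The median log2 difference of the 11 genes was 0.49 in Ddx6-KO and 0.71 in TOM, beside 0.09 and 0.03 over all genes, and it stayed above the all-gene median by 0.27 to 0.55 in Ddx6-KO and by 0.57 to 0.72 in TOM over the scalings, pseudocounts and filters tried. It was less stable to single libraries: in TOM the median was 0.19 (all genes 0.00) without TOM day 0 library 1, and in Ddx6-KO it was 0.79 (all genes 0.09) without day 0 library 2 of that line. The calls moved with the scaling too: with all FPKM rescaled to a common sum (TPM), no mitochondrial gene was called in either line. When single libraries were left out, the count in Ddx6-KO was 0 for day 0 libraries 1 and 2 and day 2 library 1 of that line, and 4 for day 0 libraries 1 and 2 of TOM. The count in TOM was 0 when day 0 library 1 or 2 of Ddx6-KO, day 0 library 1 of TOM or a day 2 library of TOM was left out, 1 for a day 2 library of Ddx6-KO, and 6 for day 0 library 2 of TOM.

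TOM day 0 library 1 stood apart in mitochondrial RNA. Its mt-Rnr1 and mt-Rnr2, the ribosomal RNAs of the mitochondrion, were at 838 and 5082 FPKM, while the other 7 libraries held 17756 to 61552 FPKM of either. In the same library mt-Nd2, mt-Nd4, mt-Nd5 and mt-Nd6 were at 453, 162, 139 and 169 FPKM, against 1252, 495, 672 and 584 FPKM in TOM day 0 library 2. mt-Co1 did not share this gap, with 3018 and 3125 FPKM in the 2 libraries. The mitochondrial rRNA list, with 2 members, gave no call in any of the 5 comparisons, with median log2 differences of 0.99 (day 2 against day 0) in Ddx6-KO, 2.42 in TOM, -1.43 for the difference of the changes, 1.59 between the lines at day 0 and 0.16 at day 2.

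The 13 mitochondrial mRNAs together held 14903 and 12251 FPKM in Ddx6-KO day 2 (mean 13577 ± 1875, SD, n = 2), against 8045 and 8578 FPKM at day 0 (8311 ± 377). In TOM they held 14881 and 12567 FPKM at day 2 (13724 ± 1637), against 5900.2 and 9423 FPKM at day 0 (7662 ± 2491). In both lines the day 2 libraries lay above the day 0 libraries, and at day 2 the 2 lines overlapped. As a share of the FPKM of all protein-coding genes, the 13 genes held 5.05% and 3.08% in Ddx6-KO day 2, against 3.44% and 3.28% at day 0, so the Ddx6-KO groups overlapped on that scale. The shares in TOM were 6.80% and 5.67% at day 2, against 2.64% and 3.46% at day 0. The overlap in Ddx6-KO moved with a pair of predicted genes, Gm10800, listed at 11571 to 172128 FPKM, and Gm10801, at 2044 to 29722 FPKM, both highest in Ddx6-KO day 2 library 2. Without Gm10800 and Gm10801 in the sum, the shares were 7.25% and 6.27% in Ddx6-KO day 2, against 4.0% and 4.30% at day 0.

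**Figure D2:**
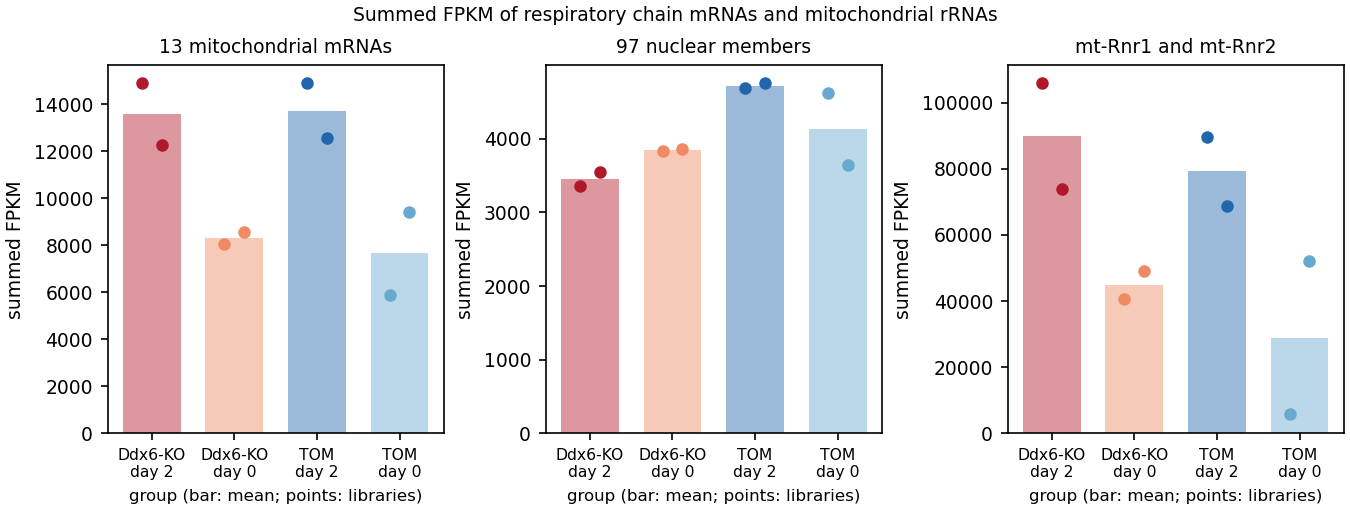
Summed FPKM of the 13 mitochondrial mRNAs, of the 97 nuclear members and of the 2 mitochondrial rRNAs. Bars are group means of 2 libraries and points are the libraries. The mitochondrial mRNA sums of day 2 (12251 to 14903 FPKM) lie above those of day 0 (5900.2 to 9423 FPKM) in both lines, while the nuclear sums of Ddx6-KO at day 2 (3357 and 3553 FPKM) are below every other group's.

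The nuclear members summed to 3357 and 3553 FPKM in Ddx6-KO day 2 (3455 ± 138, SD, n = 2), against 3840.1 and 3862 FPKM at day 0 (3851 ± 15.4). In TOM they summed to 4686 and 4761 FPKM at day 2 (4723 ± 53.5), against 4620.0 and 3641 FPKM at day 0 (4130.4 ± 692). Both Ddx6-KO day 2 libraries thus lay below both day 0 libraries of their line and below all TOM libraries, whereas both TOM day 2 libraries lay above those of TOM day 0. The order in TOM depended on the scale. The FPKM sum over all genes was 479743 in TOM day 0 library 1, against 585916 and 593576 in TOM day 2. As a share of that sum, or of the protein-coding sum without Gm10800 and Gm10801, TOM day 0 library 1 lay above both TOM day 2 libraries. Ddx6-KO day 2 stayed below all other libraries on these scales. The ratio of the mitochondrial to the nuclear sum was 4.44 and 3.45 in Ddx6-KO day 2, against 2.09 and 2.22 at day 0. In TOM it was 3.18 and 2.64 at day 2, against 1.28 and 2.59 at day 0. In bulk samples fewer cells of a type and less RNA per cell cannot be told apart, and no test was made of these sums.

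The 90 nuclear members tested averaged 0.349 to 184 FPKM over the 8 libraries, with a median of 32.3 FPKM. The 7 nuclear members below the filter were Cox4i2, Cox7a1, Cox7b2, Cox8b and Cox8c of complex IV, Ndufa4l2 and Atp5l. Several of these are the tissue or condition forms of a subunit whose general form was abundant. Cox4i1, the common form of the largest nuclear complex IV subunit, was at 143 and 141 FPKM in Ddx6-KO day 2 and 156 and 145 FPKM at day 0, against 200.4 and 192 FPKM in TOM day 2 and 193 and 143 FPKM at day 0. Cox4i2, its lung and hypoxia form, was at or below 0.0827 FPKM in every library. Cox7a1 and Cox8b, forms of heart, skeletal muscle and brown fat, reached at most 3.27 FPKM and 0 FPKM, and Cox6a2, the muscle form of Cox6a1, was listed above 0 only in TOM day 0, at 1.04 and 1.75 FPKM. Cox7a2, the general form of Cox7a1, was at 41.7 and 40.2 FPKM in Ddx6-KO day 2 and 69.8 and 66.8 FPKM at day 0, against 59.2 and 65.8 FPKM in TOM day 2 and 63.4 and 40.7 FPKM at day 0. Of the 3 genes for subunit c, the proton-carrying ring of ATP synthase, Atp5g3 was listed highest at 39.5 to 128 FPKM. Atp5g1 was at 3.57 to 12.5 FPKM and Atp5g2 at 1.10 to 5.64 FPKM. The level of Atp5g1 is uncertain, since a copy 99.757% identical over 411 bases, Gm10039, was listed at 12.4 to 66.3 FPKM. Ndufa4 was at 103 to 182 FPKM, and its hypoxia-linked relative Ndufa4l2 was at or below 0.730 FPKM. Ndufa4 is now counted with complex IV, but both genes stand under complex I in the class counts here, by their symbols.

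With induction, few nuclear members were called in either line. In Ddx6-KO 0 of 90 were called higher and 2 lower at day 2, beside the 4.8% and 5.85% of all genes given above. An unadjusted p under 0.05 was found for 18 of the 90, beside 4062 of all 15811 genes. In TOM 1 was called higher and 0 lower, beside 3.4% and 3.74% of all genes. There 12 were at an unadjusted p under 0.05, beside 3270 of all 15811 genes. The median log2 difference was -0.13 in Ddx6-KO and 0.15 in TOM, beside 0.09 and 0.03 over all genes. The TOM median turned to -0.06 under TPM, where the all-gene median was -0.14, and over the scalings, pseudocounts and filters tried it lay 0.07 to 0.15 above the all-gene median, while that of Ddx6-KO lay 0.13 to 0.33 below it. Single libraries moved both. The TOM median was 0.31 (all genes 0.00) without TOM day 0 library 1 and -0.03 (all genes 0.07) without TOM day 0 library 2, so its direction turned with 1 library, and that of Ddx6-KO was -0.04 (all genes 0.06) without day 2 library 1 of that line. Both day 2 libraries lay below both day 0 libraries for 32 of 90 genes in Ddx6-KO (35.6%, against 23.6% of all genes) and for 9 in TOM (10.0%, against 22.8%). Under TPM the count in Ddx6-KO was 17 lower and 0 higher, with 357 genes called higher and 1917 lower of the 20144 tested there.

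The only nuclear member whose day 2 change differed between the lines was Cox6a1, the general form of a regulatory subunit of cytochrome c oxidase. It was at 108 and 113 FPKM in Ddx6-KO day 2, against 174 and 166 FPKM at day 0. In TOM it was at 176 and 204 FPKM at day 2, against 147 and 133 FPKM at day 0. Ddx6-KO libraries were lower at day 2 and TOM libraries higher, with no overlap in either line. The log2 difference was -0.62 (SE 0.13, limma adjusted p = 0.0278) in Ddx6-KO and 0.43 (SE 0.13, adjusted p = 0.108) in TOM, and the difference of the 2 changes was -1.05 (SE 0.19, 95% interval -1.48 to -0.61, adjusted p = 0.0247). In that comparison 0 nuclear members were called higher and 1 lower, beside 2.02% and 2.17% of all genes, with a median of -0.29 beside 0.04 over all genes. Leaving out TOM day 0 library 1 gave a median of -0.49, and leaving out library 2 of that group gave -0.15. No mitochondrial gene was called there, and 0 of the 11 had an unadjusted p under 0.05, beside 2916 of all 15811 genes. The call of the Cox6a1 change in Ddx6-KO was lost without any 1 of the 4 Ddx6-KO libraries. The call on the difference was kept in 1 of the 8 fits that each left out 1 library, the fit without TOM day 0 library 1, while the sign was negative in all 8.

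Ndufb4 and Uqcrh were the other nuclear members called with induction. Ndufb4, an accessory subunit of the complex I membrane arm, fell in Ddx6-KO, at 6.58 and 3.68 FPKM at day 2, against 11.9 and 11.6 FPKM at day 0 (log2 difference -1.10, SE 0.28, limma adjusted p = 0.0494). In TOM it was at 10.6 and 8.18 FPKM at day 2, against 7.53 and 5.33 FPKM at day 0 (0.49, adjusted p = 0.400). Uqcrh, the hinge protein of complex III, rose in TOM, at 161 and 159.9 FPKM at day 2, against 109 and 108 FPKM at day 0 (0.56, SE 0.12, adjusted p = 0.0356). In Ddx6-KO it was at 150.3 and 131 FPKM at day 2, against 110.3 and 112 FPKM at day 0, a shift of 0.34 (95% interval 0.05 to 0.62) that did not differ detectably from that in TOM (difference -0.22, 95% interval -0.63 to 0.18). Neither call was stable to a single library. In Ddx6-KO no nuclear gene was called when either of its day 0 libraries was left out. In TOM none was called when a day 0 library of Ddx6-KO, day 0 library 2 of TOM or a day 2 library of TOM was left out.

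**Figure D3:**
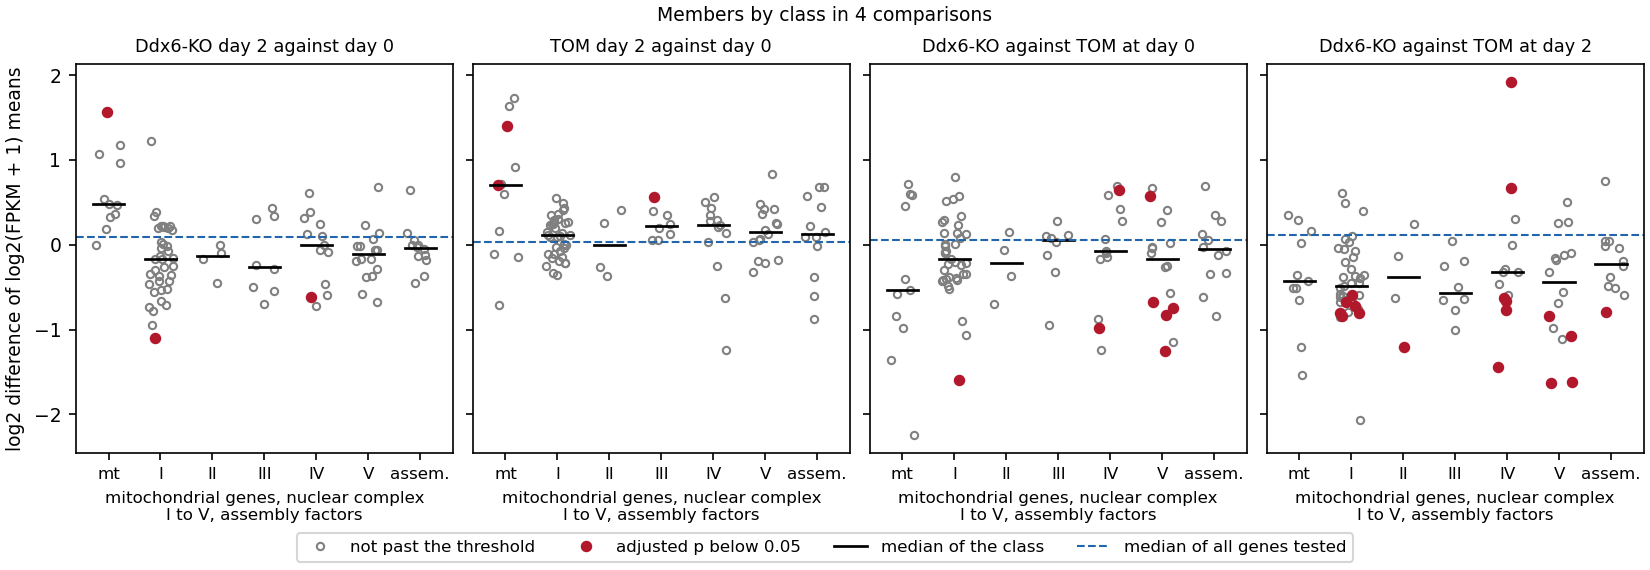
Log2 difference of the mean log2(FPKM + 1) of each member tested, by class, in 4 comparisons. Filled points passed the adjusted p of 0.05, black bars are class medians and dashed lines the median of all genes tested. At day 2 the median of every nuclear class in Ddx6-KO against TOM lies below the all-gene median of 0.11, and 16 of the 18 called members are lower.

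The clearest pattern of the nuclear members was between the lines at day 2. Of the 90 tested, 2 were called higher and 16 lower in Ddx6-KO than in TOM, beside 10.4% of all genes called higher and 8.58% called lower, so the share called lower was 17.8% against 8.58% and the share called higher 2.22% against 10.4%. The median was -0.45 beside 0.11 over all genes, and it lay 0.39 to 0.71 below the all-gene median in every setting tried. The excess of lower calls narrowed among better expressed genes. At 5 FPKM or more in 2 libraries, 19 of 82 members were called lower and 1 higher. Of the 9086 genes tested there, 1367 were called lower and 1260 higher, with an all-gene median of -0.04. Both Ddx6-KO libraries lay below both TOM libraries for 50 of the 90 genes (55.6%, against 24.9% of all genes) and above them for 7 (7.78%, against 33.2%). By class, 6 of 37 complex I genes were called lower, with 1 of 4 of complex II, 0 of 8 of complex III, 4 of 13 of complex IV, 4 of 16 of complex V and 1 of 12 assembly factors. The class medians ran from -0.57 in complex III to -0.22 in the assembly factors, and 2 complex IV genes were called higher. Of the 11 mitochondrial genes none was called, and 1 had an unadjusted p under 0.05, beside 5414 of all 15811 genes. Their median was -0.42, with 4 above 0 and 7 below. It was -0.18 without Ddx6-KO day 2 library 2 and -0.22 without TOM day 2 library 1. Genes of the low set weighed on this median. The 5 complex I genes tested, all of the high set, had a median of 0.02, and the 2 of complex V, both of the low set, -1.02.

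Complex V, the ATP synthase, held 4 of the 16 genes called lower at day 2. Atp5o, the stalk subunit that confers oligomycin sensitivity, was at 15.8 and 12.1 FPKM in Ddx6-KO day 2, against 49.4 and 41.0 FPKM in TOM day 2 (log2 difference -1.63, SE 0.18, limma adjusted p = 0.00192). Atp5j, coupling factor 6 of the peripheral stalk, was at 31.2 and 44.7 FPKM, against 126 and 107 FPKM (-1.61, SE 0.20, adjusted p = 0.00252). Every Ddx6-KO library of either day lay below every TOM library for both stalk genes. Atp5b, the catalytic beta subunit, was at 113 and 126 FPKM in Ddx6-KO day 2, against 239.5 and 269 FPKM in TOM day 2 (-1.08, SE 0.18, adjusted p = 0.00820). Atp5d, the delta subunit of the central stalk, was at 34.0 and 32.0 FPKM, against 59.9 and 59.4 FPKM (-0.83, SE 0.13, adjusted p = 0.00729). Atp5a1, the alpha subunit that forms the catalytic head with Atp5b, did not share the fall, at 109 and 117 FPKM, against 92.1 and 96.5 FPKM (0.26, 95% interval -0.08 to 0.60). The calls of Atp5o, Atp5j and Atp5d at day 2, with that of Cox7a2l, were the only ones of members kept in all settings and all 8 fits without 1 library, and that of Atp5b was lost without TOM day 2 library 2.

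In complex IV, Cox7a2l, a relative of the Cox7a subunits known for joining complexes III and IV in supercomplexes, was at 32.1 and 29.5 FPKM in Ddx6-KO day 2, against 86.5 and 84.2 FPKM in TOM day 2 (log2 difference -1.44, SE 0.17, limma adjusted p = 0.00209). Cox6a1, with the values above, differed by -0.77 (SE 0.13, adjusted p = 0.00897), a call lost without TOM day 2 library 2. The general forms Cox8a and Cox6b1 differed by -0.66 (adjusted p = 0.0180) and -0.63 (adjusted p = 0.0289), and each had both Ddx6-KO libraries below both TOM libraries. The complex was not uniform. Cox6c, a small structural subunit, was higher at 201 and 184 FPKM in Ddx6-KO day 2, against 121 and 119 FPKM in TOM day 2 (0.67, SE 0.12, adjusted p = 0.00940). Cox6b2, the testis form of Cox6b1, was also called higher but at a low level, 3.73 and 5.10 FPKM, against 0 and 1.01 FPKM (1.92, adjusted p = 0.0208).

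The 6 complex I genes called lower at day 2 were of several parts of the enzyme and differed by less than Atp5o and Atp5j. Ndufv3, a small subunit of the NADH-binding module, was at 107 and 97.8 FPKM in Ddx6-KO day 2, against 181 and 157 FPKM in TOM day 2 (log2 difference -0.72, SE 0.14, limma adjusted p = 0.0145). Ndufa8, an accessory subunit of the intermembrane-space side, was at 23.9 and 26.3 FPKM, against 42.7 and 38.6 FPKM (-0.67, adjusted p = 0.0181). The accessory subunits Ndufb6 and Ndufa13 differed by -0.80 and -0.59 (adjusted p = 0.0209 and 0.0238). Ndufs4, an accessory subunit whose loss causes Leigh syndrome in humans, was at 12.7 and 11.1 FPKM, against 21.9 and 22.4 FPKM (-0.84, adjusted p = 0.0298). Ndufv2, an iron-sulfur subunit, differed by -0.81 (adjusted p = 0.0335). For each of the 6, both Ddx6-KO libraries lay below both TOM libraries.

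In complex II, Sdha, the flavoprotein that oxidises succinate, was at 20.5 and 33.4 FPKM in Ddx6-KO day 2, against 66.8 and 57.1 FPKM in TOM day 2 (log2 difference -1.21, SE 0.24, limma adjusted p = 0.0150). Its partner Sdhb, the iron-sulfur subunit, was at 22.8 and 22.3 FPKM, against 24.0 and 25.7 FPKM (-0.14, 95% interval -0.45 to 0.18). The membrane anchors Sdhc and Sdhd differed by 0.24 (95% interval -0.13 to 0.62) and -0.63 (-1.16 to -0.10). In complex III no gene was called, and Uqcrfs1, the Rieske iron-sulfur protein, came nearest at 8.36 and 16.6 FPKM, against 24.3 and 25.3 FPKM (-1.0, adjusted p = 0.0612). Of the assembly factors, Ndufaf7, a methyltransferase needed for complex I assembly, was at 4.38 and 4.40 FPKM, against 8.15 and 8.57 FPKM (-0.79, adjusted p = 0.0286).

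**Figure D4:**
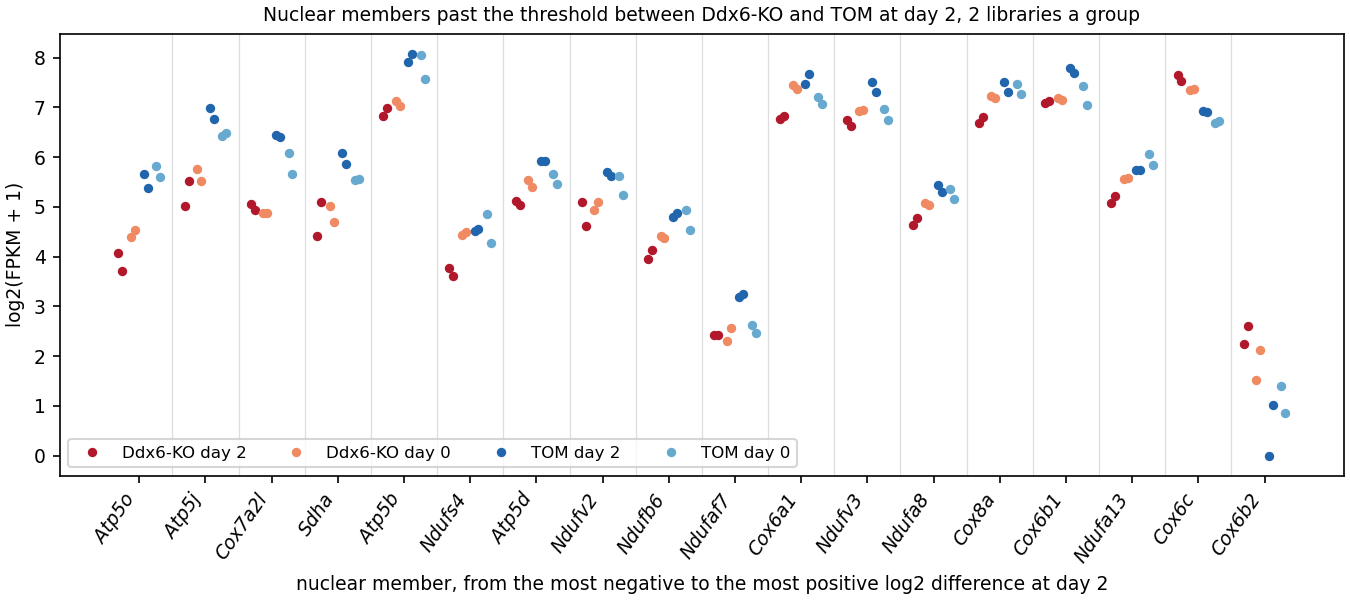
Level, as log2(FPKM + 1), of the 18 nuclear members called between Ddx6-KO and TOM at day 2, in the libraries of all 4 groups, ordered by the log2 difference at day 2. Each point is a library. Atp5o, Atp5j and Cox7a2l are lower in both Ddx6-KO groups than in both TOM groups, Cox6c is higher in both, and Cox6b2 lies near the floor of the scale.

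The number of calls at day 2 depended on the TOM day 2 libraries and on the scaling. Without TOM day 2 library 1 there were 7 nuclear calls, all lower, and without TOM day 2 library 2 there were 1 higher and 6 lower. With each library scaled to its nuclear protein-coding sum, 1 nuclear member was called higher and 48 lower, with 482 genes called higher and 3180 lower of 15628 tested and an all-gene median of -0.39. With both Gm10800 and Gm10801 left out of that sum, the count was 2 higher and 16 lower, as in the unscaled fit.

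At day 0, before induction, 2 nuclear members were called higher and 6 lower in Ddx6-KO, beside 6.55% of all genes called higher and 4.81% called lower. The median was -0.09 beside 0.05 over all genes, and both Ddx6-KO libraries lay below both TOM libraries for 30 of the 90 genes (33.3%, against 25.6% of all genes). The direction of that median rested on single TOM libraries: it was 0.05 (all genes 0.00) without TOM day 0 library 1 and -0.27 (all genes 0.12) without TOM day 0 library 2. Of the 6 lower calls, 4 were of complex V. Atp5o was at 20 and 22.3 FPKM in Ddx6-KO day 0, against 55.7 and 47.9 FPKM in TOM day 0 (log2 difference -1.25, SE 0.18, limma adjusted p = 0.00703). Atp5j was at 53.0 and 44.8 FPKM, against 84.9 and 89.1 FPKM (-0.82, adjusted p = 0.0375), and Atp5b was at 138 and 130.0 FPKM, against 266 and 190.2 FPKM (-0.74, adjusted p = 0.0398). Atp5j2, subunit f of the membrane sector, differed by -0.67 (adjusted p = 0.0454). Atp5o, Atp5j and Atp5b were thus called lower at both times, and none of them had a called difference of the day 2 changes. Atp5d, lower at day 2, was not called at day 0, at 45.5 and 41.2 FPKM in Ddx6-KO, against 49.4 and 43.2 FPKM in TOM.

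The other day 0 calls were Cox7a2l, at 28.5 and 28.6 FPKM in Ddx6-KO, against 66.9 and 49.4 FPKM in TOM (-0.99, limma adjusted p = 0.0116), and Ndufa12, a complex I accessory subunit, at 2.57 and 1.02 FPKM, against 5.30 and 9.50 FPKM (-1.60, adjusted p = 0.0361). Cox6c was higher at 161 and 164 FPKM, against 102 and 106 FPKM (0.64, adjusted p = 0.0148), and Atp5a1 was higher at 119 and 118 FPKM, against 88.5 and 70.2 FPKM (0.58, adjusted p = 0.0436). Of the genes called at both times, Cox6c, Cox7a2l, Atp5o, Atp5j and Atp5b, each had the same sign at day 0 and day 2. These genes were picked by their calls, and the comparisons share an estimate of the spread and the same cloned lines. The shared sign is therefore not a separate test. No mitochondrial gene was called at day 0, and 3 of 11 had an unadjusted p under 0.05, beside 4112 of all 15811 genes. With either Ddx6-KO day 0 library left out no nuclear member was called at day 0. There were 2 higher and 2 lower without TOM day 0 library 1, 1 higher and 3 lower when a TOM day 2 library was left out, and with each library scaled to its nuclear protein-coding sum 1 was lower. For the mitochondrial genes at day 0 the direction of the calls turned with the library left out. Without TOM day 0 library 2, 3 were called higher in Ddx6-KO (mt-Nd4, mt-Nd5 and mt-Nd6), and 1 was called lower without Ddx6-KO day 0 library 2 (mt-Atp6), without TOM day 0 library 1 (mt-Nd2) and without either TOM day 2 library (mt-Atp8).

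Processed pseudogenes, retrotransposed copies of mRNAs, share the sequence of several nuclear members. Of the nuclear members, 22 had an annotated copy in the table with at least 95% identity. In 17 the copies averaged 1 FPKM or more, and in 12 they averaged more than the member. Atp5o has Gm5436 on chromosome 12 (chr12:84258331-84258973, minus strand), which differs at 19 of 639 aligned coding bases. Cox7a2l has Gm6969 on chromosome 12 (chr12:24638669-24639010, minus strand), which is identical over the 201 coding bases aligned. Ndufa12 has Gm15920 on chromosome 5 (chr5:130188395-130188796, plus strand), which differs at 2 of 399 coding bases. A 60-base coding stretch of each pair is shown from GENCODE M21, since these stretches decide how far reads of the 2 loci can be told apart, with capitals at the bases that differ.
Atp5o: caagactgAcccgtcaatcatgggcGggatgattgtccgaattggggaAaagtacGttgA
Gm5436: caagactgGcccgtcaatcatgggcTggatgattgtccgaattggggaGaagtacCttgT
Cox7a2l: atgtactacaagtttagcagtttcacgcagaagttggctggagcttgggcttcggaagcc
Gm6969: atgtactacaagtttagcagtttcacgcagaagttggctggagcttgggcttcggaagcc
Ndufa12: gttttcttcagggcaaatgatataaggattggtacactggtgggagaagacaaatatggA
Gm15920: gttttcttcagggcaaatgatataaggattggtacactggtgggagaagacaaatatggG
Gm5436 was at 29.2 and 43.0 FPKM in Ddx6-KO day 2 and 38.0 and 33.1 FPKM at day 0, against 60.3 and 48.4 FPKM in TOM day 2 and 48.8 and 50 FPKM at day 0. Gm6969, listed at more than its parent in every library, was at 80.4 and 129 FPKM in Ddx6-KO day 2 and 105 and 86.2 FPKM at day 0, against 262 and 162 FPKM in TOM day 2 and 146 and 143 FPKM at day 0. The copies were thus lower in Ddx6-KO as well, and how the fragments divide between parent and copy is uncertain.

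With the FPKM of near-identical copies added to the member, an alternative chosen after seeing the data, Atp5o stayed lower at both times (log2 difference -0.98, limma adjusted p = 0.00746 at day 2, and -0.83, adjusted p = 0.0183 at day 0). FPKM is scaled by length, so fragments of a copy shorter than its member weigh more in such a sum. The sums are therefore not fragment totals of a family. Cox7a2l stayed lower at day 2 (-1.13, adjusted p = 0.0154) and lost its call at day 0 (-0.70, adjusted p = 0.0946). Ndufa12 lost its day 0 call (-0.31, adjusted p = 0.310) and gained one at day 2 (-0.74, adjusted p = 0.0247). Calls were also gained by Atp5f1, a peripheral stalk subunit, higher at day 0 (0.57, adjusted p = 0.0438), by Ndufs3, a core subunit of complex I, lower at day 0 (-0.85, adjusted p = 0.0365), and by Ndufs5, an accessory one, lower at day 2 (-1.18, adjusted p = 0.0298). Cox6c stayed higher, by 0.84 at day 2 and 0.63 at day 0. Atp5l, subunit g of ATP synthase, was at or below 0.496 FPKM in every library, while its copy Gm10221 on chromosome 5, identical over 309 aligned bases, was at 88.9 and 87.2 FPKM in Ddx6-KO day 2 and 83.2 and 77.4 FPKM at day 0, against 138 and 131 FPKM in TOM day 2 and 127 and 77.1 FPKM at day 0. The member listed as not expressed thus had a copy among the more abundant entries of the family. mt-Co3 with its copies was called lower in Ddx6-KO at both times (-1.61 at day 2 and -1.64 at day 0, adjusted p = 0.0124 and 0.0153), and so was mt-Nd3 (-1.97 and -2.29, adjusted p = 0.0389 and 0.0330), at levels of a few FPKM.

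**Figure D5:**
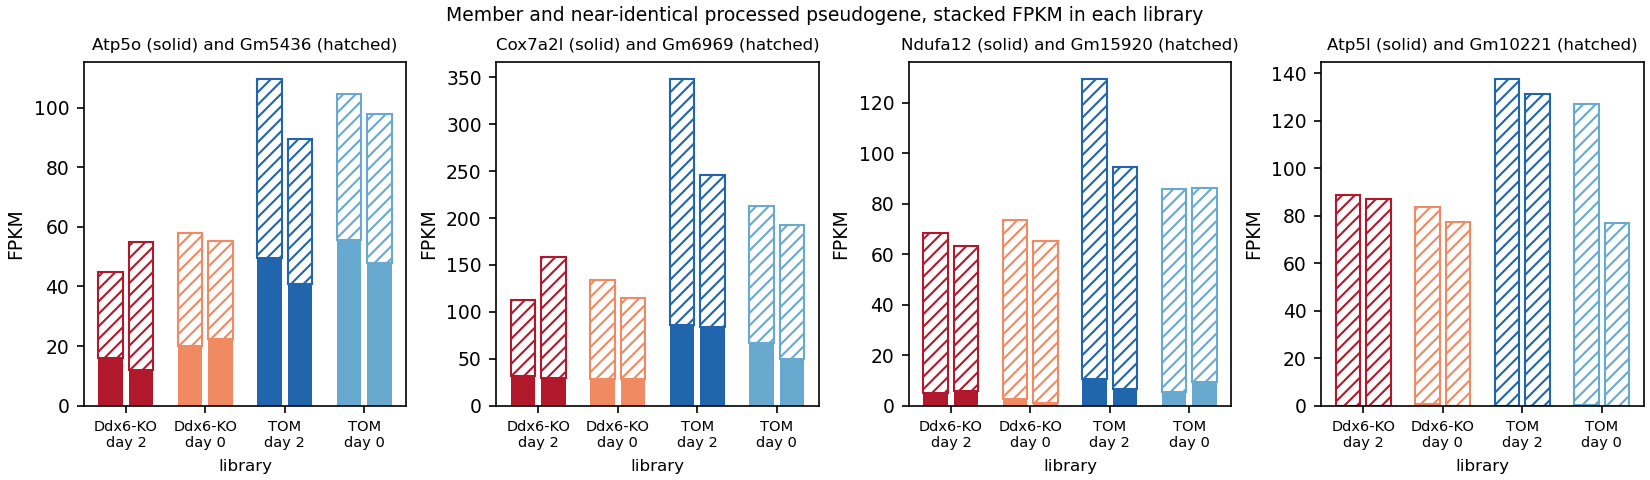
FPKM of 4 nuclear members (solid) and of 1 near-identical processed pseudogene of each (hatched), stacked for each of the 8 libraries. Atp5o and Gm5436, and Cox7a2l and Gm6969, are both lower in the Ddx6-KO libraries, and nearly all fragments of the Atp5l family are listed under Gm10221.

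Promoters of respiratory chain genes are known for sites of NRF1, GABPA and YY1, factors of mitochondrial biogenesis. RefSeq promoters (GRCm38.p6, 250 bases before to 50 after the start) matched 78 members. The letters GCATGCGC, the core of the NRF1 motif, or their reverse complement GCGCATGC, occurred in 12 of them (15.4%), against 3.94% of 17492 protein-coding genes. The YY1 letters AAGATGGC, or GCCATCTT, occurred in 10 (12.8%, against 3.57%), and the GABPA letters CCGGAAGT, or ACTTCCGG, in 5 (6.41%, against 5.69%). Upstream stretches are shown for 3 called genes, with the match in capitals: Cox6a1, whose day 2 changes differed between the lines (chr5:115349081-115349160, minus strand), Ndufa8, lower in Ddx6-KO at day 2 (chr2:36049339-36049418, minus strand), and Uqcrh, higher at day 2 in TOM (chr4:116075071-116075150, minus strand).
Cox6a1: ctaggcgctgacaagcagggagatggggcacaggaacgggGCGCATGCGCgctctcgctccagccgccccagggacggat
Ndufa8: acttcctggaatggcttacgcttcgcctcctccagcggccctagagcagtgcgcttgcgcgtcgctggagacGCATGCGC
Uqcrh: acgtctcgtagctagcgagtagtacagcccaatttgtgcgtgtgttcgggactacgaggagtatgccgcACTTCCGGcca
A match is a description of the letters and not of a bound site.

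Genes around Atp5o, Atp5j, Atp5b and Cox7a2l, which were called lower in Ddx6-KO at day 2, were counted too. The surroundings of the other called members were not counted. Within 2 Mb of Atp5o, 30 other genes were tested, and 10 were called lower and 1 higher in Ddx6-KO at day 2, with a median of -0.70, and 6 lower and 1 higher at day 0, with a median of -0.39. Mrps6, a mitochondrial ribosome gene, was at 36.7 and 37.7 FPKM in Ddx6-KO day 2, against 231 and 206 FPKM in TOM day 2. Of 6 genes around Atp5j, on the same chromosome, 4 were called lower and 0 higher at day 2, with a median of -0.83, and 2 lower and 1 higher at day 0, with a median of -0.03. Of 61 around Atp5b, 13 were lower and 1 higher at day 2, with a median of -0.38, and 7 lower and 0 higher at day 0, with a median of -0.42. Of 10 around Cox7a2l, 1 was lower and 0 higher at day 2, with a median of -0.13, and 1 lower and 1 higher at day 0, with a median of -0.30. The shares of all genes called lower and higher were 8.58% and 10.4% at day 2, and 4.81% and 6.55% at day 0. Chromosome medians over the protein-coding genes tested also differed between the lines: at day 2 they were 0.86 on chromosome 18, which holds Atp5a1, 0.44 on chromosome 1, -0.32 on chromosome 10, which holds Atp5b and Ndufa12, and -0.25 on chromosome 17, which holds Cox7a2l. At day 0 the same medians were 0.85, 0.31, -0.32 and -0.22. Their part in the calls of the members was not tested, and since each line was cloned, differences between clones and an effect of the Ddx6 guide cannot be told apart.

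Genes that build or serve the respiratory chain were counted from lists. Beside these counts stand the shares of all genes called, which were 8.58% lower and 10.4% higher in Ddx6-KO against TOM at day 2 and 4.81% lower and 6.55% higher at day 0. With induction they were 5.85% lower and 4.8% higher in Ddx6-KO and 3.74% lower and 3.4% higher in TOM, and for the difference of the changes 2.17% lower and 2.02% higher. The mitochondrial ribosome, which translates the 13 mitochondrial mRNAs, had 18 of 78 genes called lower and 0 higher in Ddx6-KO at day 2 (median -0.46), and 7 lower and 1 higher at day 0. Mrps16, a small-subunit protein, was at 4.95 and 7.70 FPKM in Ddx6-KO day 2, against 35.7 and 44.8 FPKM in TOM day 2 (log2 difference -2.51, limma adjusted p = 0.00101). Of its genes 7 were lower and 2 higher with induction in Ddx6-KO, 1 lower and 1 higher in TOM, and 0 differed between these changes. The tricarboxylic acid cycle, which feeds complexes I and II, had 5 of 17 lower and 0 higher at day 2 (median -0.43) and 0 at day 0. Mdh2, malate dehydrogenase, was at 37.4 and 29.6 FPKM, against 82.1 and 81.8 FPKM (-1.27, adjusted p = 0.00199), and Cs, citrate synthase, was at 15.8 and 18.4 FPKM, against 36.5 and 40.1 FPKM (-1.12, adjusted p = 0.00341). Mdh2 was also the list's 1 gene whose day 2 changes differed (-1.02, adjusted p = 0.0394). With induction 1 gene of the cycle rose (Idh2) and 1 fell (Cs) in Ddx6-KO, and 2 rose in TOM (Idh2 and Mdh2).

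The list of uncouplers and carriers of the inner membrane includes those that exchange ATP, ADP and phosphate for ATP synthase. It had 4 of 7 genes lower and 0 higher at day 2 and 2 lower and 2 higher at day 0. Slc25a5, an ADP/ATP translocase, was at 16.1 and 18.8 FPKM in Ddx6-KO day 2, against 68.3 and 72.1 FPKM in TOM day 2 (log2 difference -1.95, limma adjusted p = 0.000948), and Slc25a4, another, was at 52.1 and 52.4 FPKM, against 115 and 113 FPKM (-1.11, adjusted p = 0.00222). With induction 1 of the 7 fell in Ddx6-KO, Slc25a1, whose change also differed from that in TOM, and 1 rose in TOM, Ucp2. Both translocases were below the TOM levels at day 0 too, at 22.2 and 17.7 FPKM for Slc25a5 in Ddx6-KO, against 76.4 and 61.7 FPKM in TOM.

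Tfam, which packages and transcribes mitochondrial DNA, was the 1 called gene of 14 in its list, lower at both times: 7.38 and 6.61 FPKM in Ddx6-KO day 2, against 16.5 and 15.3 FPKM in TOM day 2 (log2 difference -1.08, limma adjusted p = 0.00846), and 8.81 and 8.06 FPKM in Ddx6-KO day 0, against 14.8 and 19.3 FPKM in TOM day 0 (-0.93, adjusted p = 0.0196). The list of mitochondrial RNA processing and stability had 4 of 15 lower at day 2 and 2 lower and 1 higher at day 0. Slirp, which stabilises mitochondrial mRNAs with Lrpprc, was at 28.4 and 39.0 FPKM in Ddx6-KO day 2, against 107 and 72.3 FPKM in TOM day 2 (-1.38, adjusted p = 0.00941). Lrpprc was lower at day 0 (-1.07, adjusted p = 0.0157). With induction 2 genes of that list fell in Ddx6-KO, 1 fell and 1 rose in TOM, and Pnpt1, the mitochondrial polynucleotide phosphorylase, fell in both (-0.95 in Ddx6-KO and -1.27 in TOM).

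Ppargc1a, the coactivator that drives mitochondrial biogenesis, was called in 4 comparisons. It was at 12.2 and 12.9 FPKM in Ddx6-KO day 2, against 1.57 and 1.08 FPKM at day 0, and at 2.21 and 1.56 FPKM in TOM day 2, against 3.45 and 10.2 FPKM at day 0. It was called higher in Ddx6-KO at day 2 than at day 0 (log2 difference 2.55, limma adjusted p = 0.00965) and than in TOM at day 2 (2.24, adjusted p = 0.0115), and lower than in TOM at day 0 (-1.61, adjusted p = 0.0475). The difference of its day 2 changes was 3.85 (adjusted p = 0.0138). Of the 8 regulators tested, Ppargc1a included, Gabpb1, a GABP subunit, was called lower at day 2 than at day 0 in Ddx6-KO (-0.97) and for the difference of the changes, and higher at day 0 in Ddx6-KO than in TOM, and in TOM 0 were called with induction.

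The lists of assembly, coenzyme Q and import genes gave few calls. In Ddx6-KO against TOM at day 2 the lower calls were Timmdc1 (1 of 11 complex I assembly and quality genes), Uqcc2 (1 of 7 of complex III assembly), Higd2a and Cox17 (2 of 22 of complex IV assembly), Atpaf2 (1 of 5 of complex V assembly and its inhibitor, with Usmg5 higher), Coq6 (1 of 15 of cytochrome c and coenzyme Q) and 3 of 24 mitochondrial import genes, with 1 import gene higher. None of the 4 complex II assembly genes was called in any comparison. At day 0 the calls were Smim20 of complex IV assembly, lower, and 2 import genes, lower. With induction, Uqcc2 and Higd2a fell and Usmg5 rose in Ddx6-KO, where 1 import gene fell and 1 rose, and Higd1a and Coq8a rose in TOM. Usmg5, a small ATP synthase subunit, was at 7.35 and 2.13 FPKM in Ddx6-KO day 2 and 0 in both day 0 libraries, against 0 in TOM day 2 and 0.779 and 3.13 FPKM in TOM day 0, and its change differed between the lines.

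The mitochondrial stress response, a set of ATF4 targets and chaperones, had 11 of 13 genes lower and 0 higher in Ddx6-KO at day 2 (median -1.08), beside 8.58% and 10.4% of all genes. At day 0 it had 3 lower (Atf5, Trib3 and Ddit3) and 0 higher, beside 4.81% and 6.55%. With induction 8 were lower and 0 higher in Ddx6-KO, beside 5.85% and 4.8%, and 3 were lower and 1 higher in TOM, beside 3.74% and 3.4%. Mthfd2, an enzyme of mitochondrial folate metabolism, and Atf4, the transcription factor itself, were the 2 whose changes were lower in Ddx6-KO than in TOM.

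The identity and stage of the cells were read from marker genes. Summed preadipocyte and mesenchymal markers were at 2127 to 3795 FPKM in all libraries, and Thy1, one of them, was at 0.33 to 0.50 FPKM in Ddx6-KO, against 4.64 to 10.6 FPKM in TOM. Of 9 tested, 2 were higher and 3 lower with induction in Ddx6-KO, 2 lower in TOM, 1 higher for the difference of the changes, 1 higher and 5 lower in Ddx6-KO at day 0 and 2 higher and 3 lower at day 2. Summed adipocyte markers were at 26.9 and 22.8 FPKM in Ddx6-KO day 2, against 42.3 and 44.7 FPKM at day 0, and at 683 and 676 FPKM in TOM day 2, against 237 and 213 FPKM at day 0. With induction 7 of 9 rose and 1 fell in TOM and 0 rose and 1 fell in Ddx6-KO, 1 higher and 4 lower differed between these changes, and in Ddx6-KO 8 were lower than in TOM at day 2 and 2 at day 0. The Ddx6-KO day 2 libraries, in which 16 nuclear members were lower than in TOM, thus also held the lowest adipocyte marker sums, and the part of the stage of differentiation in those differences was not tested.

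Brown and beige adipocyte markers summed to 53.7 and 43.8 FPKM in Ddx6-KO day 2 and to 2.83 to 12.9 FPKM elsewhere, carried by Dio2 and Ppargc1a, which were the 2 of 3 tested that rose in Ddx6-KO, differed between the changes and were higher than in TOM at day 2, with 1 lower at day 0 and 0 called in TOM. The macrophage, endothelium, epithelium and muscle lists summed to at most 4.02, 5.75, 1.50 and 8.69 FPKM, and their 1 call was Pecam1, higher in Ddx6-KO at day 2.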

How the data were processed

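The 8 libraries of total RNA, 2 for each line and day, were made with a strand-specific total RNA kit and sequenced as paired ends. The authors mapped reads with TopHat2 (2.1.0) to GRCm38 (mm10) after quality checks with FastQC (0.11.2) and deposited FPKM values per gene from Cufflinks (2.2.1), per the labels and the study's methods. The annotation release and the handling of reads with several matches are not given in the sources used here. FPKM depends on what else each library holds, so shares and rescaled fits were also made. Days were taken from sample titles, although the treatment note of every sample speaks of a harvest after 2 days.

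Genes were matched by Ensembl ID to GENCODE M21 (45139 of 46073). limma (3.58.1, R 4.3.3) was fitted to log2(FPKM + 1) of genes that reached 1 FPKM in 2 or more of the 8 libraries, with 1 mean per group, a variance trend, two-sided tests and Benjamini-Hochberg adjustment over all 15811 genes for each of 5 comparisons. A fold change on this scale understates that of low genes. The fit was tested on simulated data. Near-identical copies were sought with BLAST+ (2.17.0) in GENCODE M21 transcripts at 95% identity or more over at least 150 bases and 50% of the copy. Promoters were read from RefSeq (GRCm38.p6), and motifs were searched on both strands.

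The text names all 13 mitochondrial genes, up to 4 nuclear members of each class and comparison with the smallest p, isoform sets (Cox4i, Cox6a, Cox6b, Cox7a, Cox8, Ndufa4 and the subunit c genes) and up to 3 called genes of each list. Ndufv2, Atp5j2, members named for a call in an alternative fit alone, the pseudogenes, Gm10800, Gm10801, members below the filter and genes given with their chromosome or neighbours were named after their values were seen. The lists were assembly factors of complexes I to V, cytochrome c and coenzyme Q, mitochondrial DNA, RNA processing, ribosome, import, rRNA, biogenesis regulators, tricarboxylic acid cycle, carriers, stress response and cell type markers. Members and lists were chosen with earlier results of these data known. Alternatives were other pseudocounts (0.1 and 5), filters, scalings, no variance trend, and each library left out. Scaling without Gm10800 and Gm10801, the block by column number and the added copies were chosen after seeing the data.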

Additional observations from a re-analysis of the deposited data

Results flagged for a closer look

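The day 2 change of Cox6a1 differed between the lines by a test of the difference itself. It was -1.05 on the log2 scale in Ddx6-KO minus TOM (limma adjusted p = 0.0247), from -0.62 in Ddx6-KO and 0.43 in TOM, with both day 2 libraries below both day 0 libraries in Ddx6-KO and above them in TOM. It was the 1 member called for such a difference, of 11 mitochondrial and 90 nuclear genes tested. Of all genes, 2.02% were called higher and 2.17% lower. The call was kept in 7 of 11 alternative settings and, as given above, was not stable to leaving out single libraries.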

How the results depend on the processing

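Counts of called members moved with the processing. Over the 33 calls, 429 of 626 values under alternatives were still called, 197 were not, and 0 changed sign. In this paragraph, values are counts of nuclear members called with induction in Ddx6-KO and in TOM, for the difference of the changes, and between the lines at day 0 and then day 2, which were 2, 1, 1, 8 and 18. Induction in Ddx6-KO gave 1 with a pseudocount of 0.1, 0 without a filter, 5 at 5 FPKM or more, 17 under TPM, 4 with the nuclear protein-coding sum and 0 without the variance trend. Induction in TOM, with Uqcrh higher, gave 1 lower call and none higher without a filter, under TPM and without the trend (Cox6a2, at -1.24 and not called in the fit reported). It gave 2 at 5 FPKM or more and 0 with median-ratio scaling or the nuclear protein-coding sum. The difference gave 0 without a filter, with median-ratio scaling or without the trend. Day 0 gave 4 without a filter, 5 under TPM, 1 with the nuclear protein-coding sum and 3 without the trend, and day 2 gave 49 with that sum. Leaving out 1 library gave 0 to 4, 0 to 2, 0 to 2, 0 to 9 and 7 to 22. The cause was not tested.

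For the mitochondrial genes (1, 2, 0, 0 and 0 called), induction in Ddx6-KO gave 0 without a filter, under TPM and with the nuclear protein-coding sum. Induction in TOM gave 1 with a pseudocount of 0.1, median-ratio scaling or the nuclear protein-coding sum, with or without Gm10800 and Gm10801, and 0 without a filter, under TPM or without the trend. Day 0 gave 1 at 5 FPKM or more and 2 with copies added, and day 2 gave 1 with the nuclear protein-coding sum and 2 with copies added. Leaving out 1 library gave 0 to 4, 0 to 6, 0, 0 to 3 and 0 to 1, with calls of both directions at day 0. The all-gene median moved to -0.19 under TPM and -0.26 with the nuclear protein-coding sum for induction in Ddx6-KO, and to -0.39 with that sum at day 2.

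The mean share of the 13 mitochondrial mRNAs was 4.07% in Ddx6-KO day 2, 3.36% in Ddx6-KO day 0, 6.23% in TOM day 2 and 3.05% in TOM day 0 of the protein-coding sum. Of the sum over all genes it was 2.05%, 1.68%, 2.33% and 1.50% in that order, and without Gm10800 and Gm10801 it was 6.76%, 4.15%, 6.75% and 4.02%. Single libraries gave 3.08% to 5.05%, 3.28% to 3.44%, 5.67% to 6.80% and 2.64% to 3.46%.

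The planned replicate block by label number was not run, since the columns cannot be tied to those numbers. Same-numbered columns did not deviate together (Pearson's r of -0.096 to 0.067). With the replicate block by column number, nuclear calls numbered 1, 0, 0, 3 and 18, and mitochondrial calls in TOM 0.

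Low genes rest on few fragments, and FPKM carries no count behind a value.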
